A study of Drosophila melanogaster with 25 samples.

Results

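Aminoacyl-tRNA synthetase genes were taken as all genes whose FlyBase symbol is a three-letter amino acid code, or GluPro, followed by RS, with or without the suffix -m for mitochondria, and with the alpha and beta subunits of PheRS. The rule found 35 genes in the annotation, of which 34 have values among the 13955 genes of the files: 20 cytoplasmic and 14 mitochondrial. PheRS-m could not be matched to an identifier and was not analysed here. Their mRNA was sequenced in wing imaginal discs, the epithelial sacs of the larva from which the adult wing develops. Each sample pooled 50 discs of wandering L3 larvae kept at 25 °C. The 19 libraries came from 3 RpS3+puc, 2 RpS3, 2 RpS3*, 2 RpS15, 2 mahj and 8 WT samples. RpS3 discs (FRT82B, RpS3[Plac92], ubi-GFP/+) and RpS3* discs (FRT82B, RpS3*/+) each had 1 mutant allele of RpS3, which encodes a protein of the small ribosomal subunit, and RpS15 discs (FRT42D, M(2)53[1]/+) had 1 mutant allele of RpS15, which encodes another. The mahj discs carried hs-FLP and stauGFP/+ and were homozygous for mahj on FRT42D. RpS3+puc discs carried RpS3[Plac92] and ubi-GFP over a WT chromosome, together with UAS-GFP and UAS-Puc driven by esg-Gal4, and so overexpressed the JNK inhibitor puckered. WT libraries 1 to 4, 7 and 8 were yw, and WT libraries 5 and 6 were FRT82, ubi-GFP. The study treats RpS3, RpS3* and mahj cells as losers of cell competition against WT cells, and RpS15 cells as slow-growing without being losers.

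Aminoacyl-tRNA synthetases join each amino acid to its own tRNA and thereby supply every ribosome with charged tRNA. They fall into class I and class II by the fold of their catalytic domain. In animals, a group of the cytoplasmic enzymes (here ArgRS, AspRS, GlnRS, GluProRS, IleRS, LeuRS, LysRS and MetRS) associates in the multisynthetase complex, held together by AIMP proteins, while the others act on their own. Nuclear genes with the suffix -m encode enzymes that charge tRNAs inside mitochondria, where ribosomes make subunits of the respiratory chain. The rule found no -m gene for glutamine, glycine, histidine, lysine or threonine. Compartments follow the symbol alone here, and whether genes counted as cytoplasmic also supply mitochondria was not tested. GluProRS joins a glutamate and a proline enzyme in a single protein, and cytoplasmic PheRS is built from alpha and beta subunits.

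The values are FPKM, which are divided by transcript length and library size, so that levels can be set beside each other between genes. The implied depth was 12.1 to 17.0 M reads per library. The genes that were altered went with their labels. RpS3 mRNA was 1262 to 1366 FPKM in the RpS3, RpS3* and RpS3+puc libraries, against 2057 to 3023 FPKM in WT, and it was also below the WT range in RpS15 discs, at 1630 and 1648 FPKM. RpS15 mRNA was 1008 and 1055 FPKM in RpS15 discs, against 2611 to 4102 FPKM in WT, and mahj mRNA was 17.2 FPKM in both mahj libraries, against 23.4 to 29.1 FPKM in WT. The puc level was 160, 225 and 186 FPKM in RpS3+puc discs, against 13.0 and 15.0 FPKM in RpS3 discs. The 7 wing disc markers with values (nub, vg, rn, dpp, en, hh and sd) were expressed in every genotype, with sums of 314 to 551 FPKM, and Ubx, a marker of haltere and leg discs, stood at 1.19 to 2.91 FPKM. The 6 fat body genes summed to 1446 and 61.4 FPKM in the mahj libraries, 109 and 641 FPKM in RpS15, 17.6 to 23.3 FPKM in RpS3*, 119 to 140 FPKM in RpS3 and 4.85 to 8.98 FPKM in RpS3+puc, against 34.9 to 318 FPKM in WT. Sums over 5 haemocyte genes ranged from 0.570 to 14.3 FPKM and over 4 disc myoblast genes from 39.2 to 69.7 FPKM. Sums over 4 larval muscle genes were 5.88 to 16.8 FPKM in WT, 9.34 to 17.1 in RpS15 and 10.3 to 11.9 in RpS3+puc. They were above WT in RpS3 (20.5 to 24.0 FPKM), RpS3* (18.5 to 19.9) and mahj (20.7 to 24.6). Sums over 4 tracheal genes were 330 to 447 FPKM in WT and 345 to 386 in RpS15. They were above WT in RpS3 (467 to 471 FPKM), RpS3* (489 to 582), mahj (469 to 525) and RpS3+puc (479 to 503). The part of these other tissues in the values below was not tested. In whole discs, fewer cells of a type and less RNA per cell cannot be told apart.

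Cytoplasmic synthetase genes were expressed at higher levels than mitochondrial ones. In WT discs the cytoplasmic genes ranged from 139 ± 7.17 FPKM for AspRS to 32.7 ± 3.19 FPKM for ValRS (SD, n = 8), and the mitochondrial genes from 33.3 ± 2.77 FPKM for AspRS-m to 3.84 ± 0.619 FPKM for GluRS-m. AspRS, LysRS, SerRS, AlaRS, ThrRS and AsnRS all averaged over 100 FPKM. LysRS reached 130 ± 15.5 FPKM, SerRS 129 ± 14.1 FPKM and AlaRS 118 ± 6.74 FPKM. The levels of AspRS, LysRS and SerRS lay within each other's spread, as did those of CysRS (39.1 ± 3.14 FPKM), TrpRS (38.6 ± 4.53 FPKM) and LeuRS (40.1 ± 3.63 FPKM). AspRS-m was the only mitochondrial gene in the range of the cytoplasmic ones, beside MetRS (33.0 ± 3.28 FPKM) and ValRS, and its neighbour in the order was SerRS-m at 17.5 ± 1.00 FPKM. The lowest levels were those of ValRS-m (4.04 ± 0.592 FPKM) and GluRS-m.

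**Figure D1:**
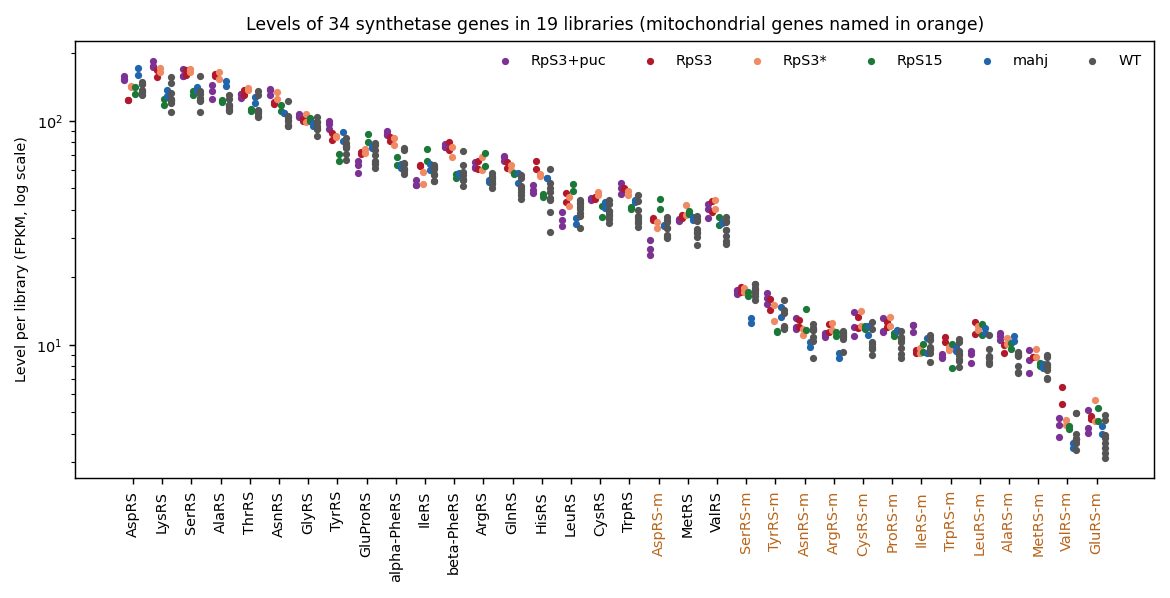
FPKM (log axis) of the 34 synthetase genes in all 19 libraries, ordered by their WT mean, with 1 point per library and colours for genotypes. Cytoplasmic genes run from AspRS (139 FPKM in WT) to ValRS (32.7 FPKM), and of the mitochondrial genes, named in orange, AspRS-m alone stands among them.

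The spread among the WT libraries had a median of 9.43% of the mean over the members (coefficient of variation) and ran from 4.96% for ArgRS to 18.8% for HisRS. HisRS, which shares its locus with Bx in the annotation, had 31.8, 46.8 and 61.0 FPKM as its lowest, median and highest WT values. Another gene overlapped 17 of the 34 members, 6 of them cytoplasmic. Whether the counting used strand is not given in the sources used here, so values of these members may include reads of their neighbours.

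RpS3 and WT discs were compared to ask how the synthetase genes differ in cells with a single intact copy of a ribosomal protein gene. In RpS3 discs 9 of the 20 cytoplasmic genes and 2 of the 14 mitochondrial genes were higher than in WT at an adjusted p under 0.1 (limma), and 0 were lower, nor was any lower at an unadjusted p under 0.05. Over all 8053 genes tested in RpS3 against WT, 14.4% were called higher and 4.17% lower. The median log2 fold change was 0.23 over the cytoplasmic and 0.17 over the mitochondrial genes, against 0.09 over all genes, of which 64.3% lay above 0.

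AlaRS, the alanine enzyme, had 162 and 159 FPKM in RpS3 discs, against 111, 117 and 130 FPKM as the lowest, median and highest WT values. The libraries did not overlap, and the log2 fold change was 0.44 ± 0.084 (SE; limma, adjusted p = 0.0062). Both subunits of cytoplasmic PheRS were higher. The beta subunit had 80.5 and 74.4 FPKM in RpS3 discs, against 51.2, 56.0 and 73.4 FPKM in WT (lowest, median, highest), a log2 fold change of 0.40 ± 0.12 (adjusted p = 0.048). The alpha subunit had 84.3 and 81.5 FPKM in RpS3 discs, against 57.9, 62.5 and 75.3 FPKM in WT, and changed by 0.36 ± 0.11 (adjusted p = 0.053). For both subunits the RpS3 libraries lay above all WT libraries.

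TrpRS, the tryptophan enzyme, had 49.7 and 50.0 FPKM in RpS3 discs, against 33.6, 37.2 and 46.7 FPKM in WT (lowest, median, highest). SerRS, the serine enzyme, had 169 and 160 FPKM in RpS3 discs, against 109, 125 and 158 FPKM in WT. Neither gene's groups overlapped, with log2 fold changes of 0.37 ± 0.12 for TrpRS and 0.36 ± 0.11 for SerRS (adjusted p = 0.059 and 0.065). ValRS, LysRS, GlnRS and ArgRS were the other cytoplasmic genes called, by 0.34, 0.33, 0.33 and 0.22 on the log2 scale, and the LysRS libraries of RpS3 and WT overlapped. GlnRS overlaps CG11858 in the annotation, which was also called higher, at 138 FPKM in RpS3 and 101 FPKM in WT discs (0.47 ± 0.15, adjusted p = 0.071). Of the 12 cytoplasmic genes outside the complex 6 were called higher and all 12 lay above 0, with a median of 0.35. Of the 8 genes of the complex 3 were called, with a median of 0.18.

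Among the mitochondrial genes, LeuRS-m had 12.7 and 11.2 FPKM in RpS3 discs, against 8.19, 8.79 and 11.1 FPKM in WT (lowest, median, highest). The lower RpS3 library lay just above the highest WT library, and the log2 fold change was 0.36 ± 0.11 (adjusted p = 0.047). ValRS-m had 5.43 and 6.47 FPKM in RpS3 discs, against 3.40, 3.80 and 4.98 FPKM in WT, without overlap, and changed by 0.47 ± 0.14 (adjusted p = 0.048). HisRS had a change of 0.47 ± 0.18 and no overlap, but was not called (adjusted p = 0.11). AspRS went the other way, also without being called: it had 124 FPKM in both RpS3 libraries, against 131 to 149 FPKM in WT, and a log2 fold change of -0.16 ± 0.082 (adjusted p = 0.22).

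The RpS3 calls depended on the libraries and on the scale. The cytoplasmic count was 0 without RpS3 replicate 1, 1 without RpS3 replicate 2, and 5 without WT2 or without WT3, and the mitochondrial count was 0 without either RpS3 library and 4 without WT7. After median-of-ratios scaling, which moved the median of all genes from 0.09 to 0.01, AlaRS and beta-PheRS were still called higher, 1 cytoplasmic gene was called lower, and ValRS-m was the mitochondrial call. With the trend along transcript length removed, a step added after seeing the data, 5 cytoplasmic genes were called higher and 1 lower. In RpS3 discs 2 of the 4 larval muscle genes and 1 of the 4 tracheal genes were also called higher, and 1 of the 4 disc myoblast genes lower.

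RpS3* discs carry the other allele of the same gene, and were compared with the same 8 WT libraries. In RpS3* discs 11 of the 20 cytoplasmic and 3 of the 14 mitochondrial genes were called higher and 0 lower, with 0 lower at an unadjusted p under 0.05 as well (limma). Over all 8067 genes tested in RpS3* against WT, 16.5% were called higher and 6.33% lower. The median log2 fold change was 0.28 over the cytoplasmic and 0.14 over the mitochondrial genes, against 0.07 over all genes. Of the 6 fat body genes 2 were called lower in RpS3*, and of the 4 disc myoblast genes 2. Called higher were 1 of the 4 larval muscle genes and 1 of the 4 tracheal genes.

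AlaRS had 165 and 153 FPKM in RpS3* discs, above all WT libraries (111 to 130 FPKM), with a log2 fold change of 0.43 ± 0.087 (adjusted p = 0.0059). SerRS had 171 and 165 FPKM in RpS3* discs, against 109, 125 and 158 FPKM in WT (lowest, median, highest). LysRS, the lysine enzyme of the complex, had 172 and 166 FPKM in RpS3* discs, against 110, 124 and 158 FPKM in WT. Neither overlapped with WT, and the log2 fold changes were 0.39 ± 0.11 for SerRS (adjusted p = 0.041) and 0.38 ± 0.12 for LysRS (adjusted p = 0.054). ValRS, the valine enzyme, had 44.3 and 40.2 FPKM in RpS3* discs, against 28.2, 32.6 and 37.1 FPKM in WT, and changed by 0.36 ± 0.11 without overlap (adjusted p = 0.039). AsnRS, alpha-PheRS, beta-PheRS, TrpRS, GlnRS, CysRS and ArgRS were also called higher, by 0.24 to 0.35 on the log2 scale. Outside the complex, 8 of 12 cytoplasmic genes were called and all 12 lay above 0 (median 0.31), and in the complex 3 of 8 were called (median 0.18).

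LeuRS-m had 12.1 and 11.6 FPKM in RpS3* discs, above the 8.19 to 11.1 FPKM of WT, and changed by 0.36 ± 0.10 (adjusted p = 0.036). ProRS-m, the mitochondrial proline enzyme, had 13.4 and 12.1 FPKM in RpS3* discs, against 8.71, 10.5 and 11.5 FPKM in WT (lowest, median, highest), and changed by 0.30 ± 0.10 without overlap (adjusted p = 0.074). CysRS-m was called at 0.32 ± 0.12 with overlapping libraries (adjusted p = 0.088).

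The cytoplasmic count in RpS3* discs was 0 without RpS3* replicate 1 and 1 without replicate 2, and 6, 5, 6 and 7 without WT2, WT3, WT4 and WT5. The mitochondrial count was 0 without either RpS3* library, 1 without WT3 or WT5 and 5 without WT6, and median-of-ratios scaling left 5 cytoplasmic calls and 1 mitochondrial call.

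**Figure D2:**
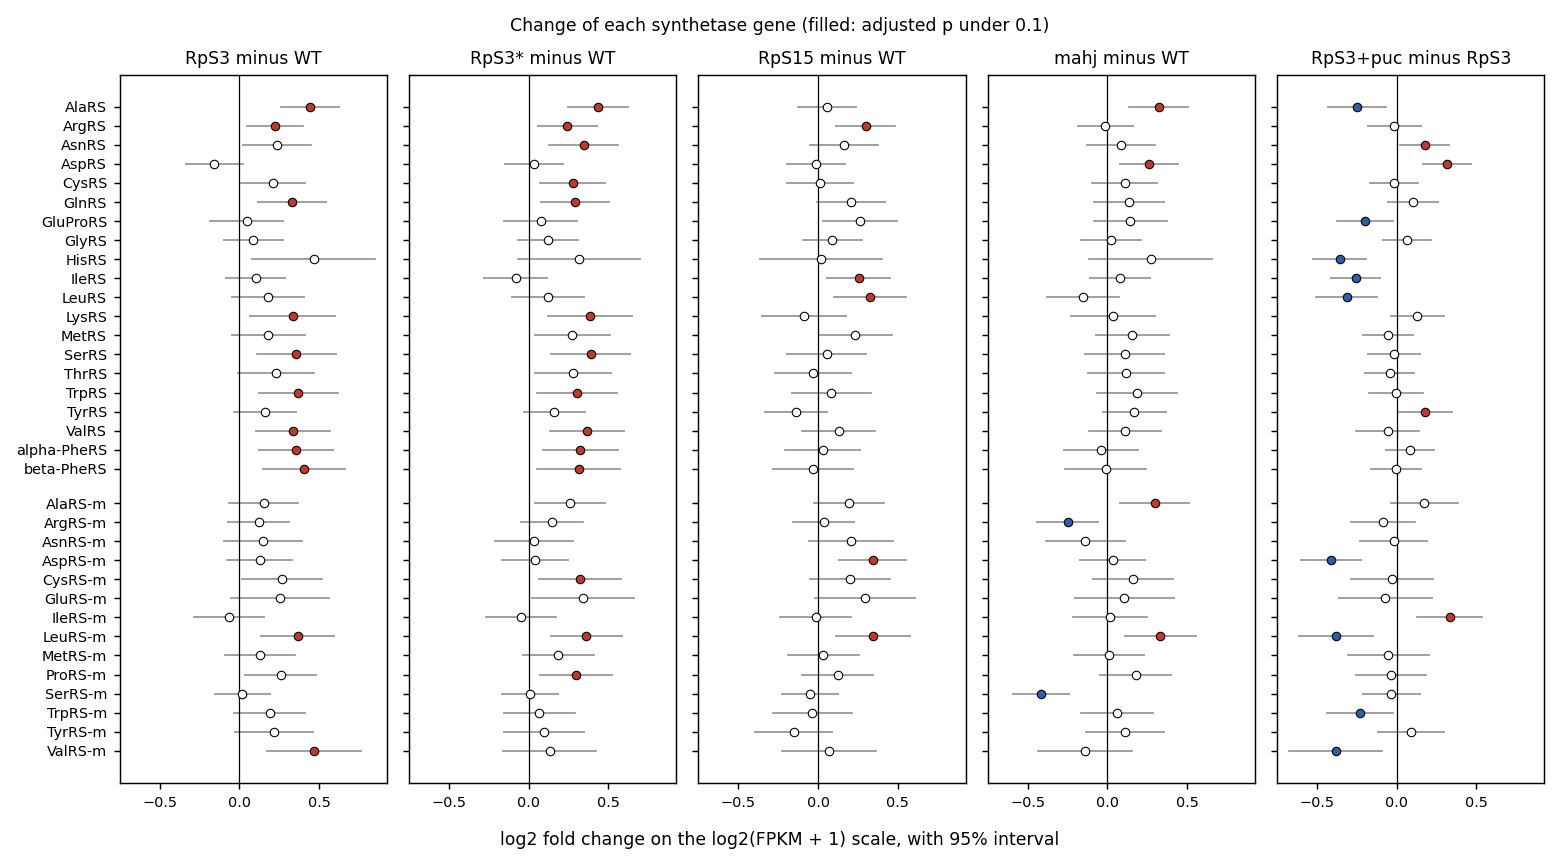
Log2 fold change (horizontal axis, log2(FPKM + 1) scale) of each synthetase gene in the comparisons of RpS3, RpS3*, RpS15 and mahj with WT and of RpS3+puc with RpS3, with 95% intervals. Filled points were called (red higher, blue lower): 11 genes in RpS3, 14 in RpS3*, 5 in RpS15, 6 in mahj and 13 in RpS3+puc.

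RpS15 discs are heterozygous for another ribosomal protein gene and are not losers. In RpS15 discs 3 of 20 cytoplasmic genes and 2 of 14 mitochondrial genes were called higher than in WT and 0 lower (limma, with 0 lower at an unadjusted p under 0.05). Over the 8134 genes tested in RpS15 against WT, 12.1% were called higher and 8.99% lower, so that the members' share of higher calls was close to that of all genes. The median log2 fold change was 0.07 over cytoplasmic and 0.10 over mitochondrial genes, against 0.03 over all genes. Of the 7 wing disc markers 3 were called higher in RpS15 and 0 lower. Of the 4 tracheal genes 1 was called higher, and of the 4 disc myoblast genes 1 lower.

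All 3 cytoplasmic genes called in RpS15 belong to the multisynthetase complex and to class I. LeuRS, the cytoplasmic leucine enzyme, had 52.2 and 48.4 FPKM in RpS15 discs, against 33.1, 40.7 and 44.1 FPKM in WT (lowest, median, highest), a change of 0.33 ± 0.10 (adjusted p = 0.059). ArgRS had 72.1 and 62.5 FPKM in RpS15 discs, against 50.1, 54.7 and 58.4 FPKM in WT, a change of 0.30 ± 0.085 (adjusted p = 0.040). IleRS had 74.9 and 66.2 FPKM in RpS15 discs, against 53.7, 59.6 and 63.4 FPKM in WT, a change of 0.26 ± 0.091 (adjusted p = 0.084). None of these 3 genes had overlapping libraries. The median over the 8 genes of the complex was 0.24, against 0.04 over the 12 others, of which 0 were called. The genes of the complex had a median longest transcript of 2929 bases, against 2414 bases for the 12 others. The part of length in the splits by complex was not tested in any comparison.

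Of the mitochondrial genes, AspRS-m had 44.6 and 40.3 FPKM in RpS15 discs, against 30.0, 33.2 and 37.2 FPKM in WT (lowest, median, highest), a change of 0.34 ± 0.097 (adjusted p = 0.039). LeuRS-m had 12.4 and 11.1 FPKM in RpS15 discs, against 8.19, 8.79 and 11.1 FPKM in WT, a change of 0.34 ± 0.11 (adjusted p = 0.053). AspRS-m stood apart from WT, whereas the lower RpS15 library and the highest WT library of LeuRS-m were level within 0.1 FPKM. SerRS and LysRS, called higher with both RpS3 alleles, were not called: SerRS had 136 and 131 FPKM and LysRS 125 and 118 FPKM in RpS15 discs, inside the WT range.

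Transcript length moved with these changes. The genes called higher in RpS15 had a median longest transcript of 3899 bases, against 2511 bases over all 34 members, and across the members Spearman's rho between length and log2 fold change was 0.33 (n = 34 genes of the same libraries). With the trend along length removed from each library, ArgRS was the only one of the 5 still called. Without RpS15 replicate 1 or replicate 2, 0 genes of either compartment were called.

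**Figure D3:**
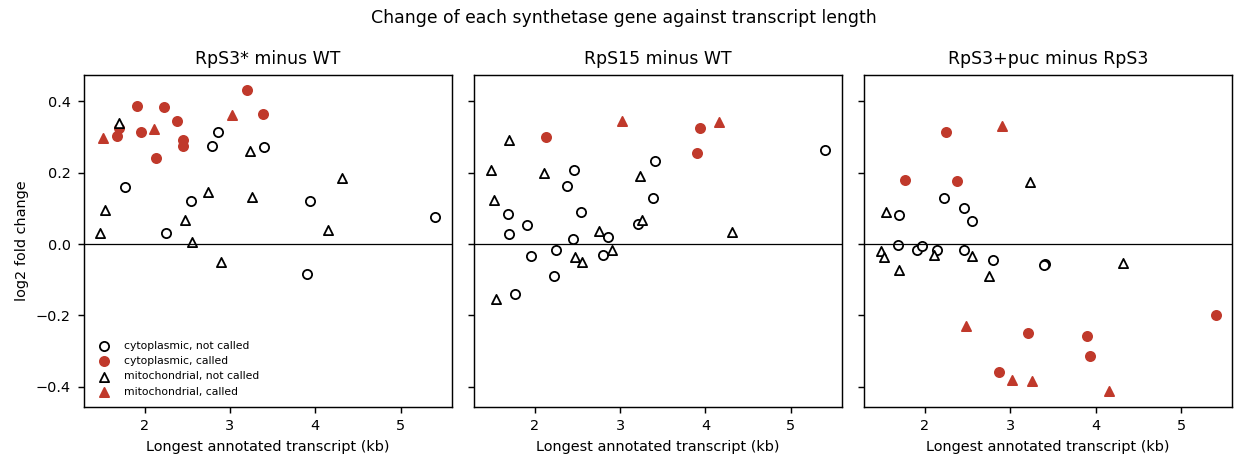
Log2 fold change (vertical axis) against the longest annotated transcript (kb) for the 34 synthetase genes, as circles (cytoplasmic) and triangles (mitochondrial), red where called. The called genes had a median length of 3899 bases in RpS15 minus WT, where ArgRS lies to the left of the others, and of 2179 bases in RpS3* minus WT. Those called lower in RpS3+puc minus RpS3 had a median of 3254 bases, with TrpRS-m the shortest.

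The mahj gene does not encode a ribosomal protein. In mahj discs 2 of the 20 cytoplasmic genes were called higher and 0 lower (limma, with 0 lower at an unadjusted p under 0.05), and of the 14 mitochondrial genes 2 were called higher and 2 lower. Over the 8145 genes tested in mahj against WT, 9.33% were called higher and 6.70% lower. The median log2 fold change was 0.11 over cytoplasmic and 0.05 over mitochondrial genes, against -0.01 over all genes. Of the 7 wing disc markers 1 was called lower in mahj, and of the 4 disc myoblast genes 2. Called higher were 2 of the 4 tracheal genes, 1 of the 4 larval muscle genes and 1 of the 5 haemocyte genes.

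AlaRS was again higher, with 151 and 144 FPKM in mahj discs, against 111 to 130 FPKM in WT, without overlap and by 0.32 ± 0.085 (adjusted p = 0.027). AspRS had 172 and 161 FPKM in mahj discs, against 131, 137 and 149 FPKM in WT (lowest, median, highest), and changed by 0.26 ± 0.084 without overlap (adjusted p = 0.068). Neither PheRS subunit was called: alpha-PheRS had 61.2 and 64.2 FPKM and beta-PheRS 57.1 and 58.3 FPKM in mahj discs, within the WT range, with log2 fold changes of -0.04 (95% interval -0.27 to 0.19) and -0.01 (-0.27 to 0.24).

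SerRS-m, the mitochondrial serine enzyme, had the largest change of the mitochondrial genes. It had 13.1 and 12.5 FPKM in mahj discs, against 15.8, 17.5 and 18.7 FPKM in WT (lowest, median, highest), and changed by -0.42 ± 0.081 (adjusted p = 0.0044). The mahj libraries lay below all 17 others, since the lowest value in any other genotype was 15.8 FPKM in a WT library. SerRS-m overlaps Nagk in the annotation, and Nagk was 8.79 FPKM in mahj and 8.99 FPKM in WT discs on average. ArgRS-m had 8.69 and 9.21 FPKM in mahj discs, against 9.28, 11.0 and 11.5 FPKM in WT, and changed by -0.25 ± 0.089 (adjusted p = 0.096). The higher mahj library lay just below the lowest WT library. Its overlapping neighbour mRpS9, a mitochondrial ribosomal protein gene, averaged 36.7 FPKM in mahj and 42.7 FPKM in WT discs, with a log2 fold change of -0.21 ± 0.10 (adjusted p = 0.24).

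AlaRS-m had 11.0 and 10.4 FPKM in mahj discs, against 7.47, 8.97 and 9.26 FPKM in WT (lowest, median, highest), a change of 0.30 ± 0.10 (adjusted p = 0.081). Its overlapping neighbour Gen was called higher too, at 12.8 FPKM in mahj and 9.18 FPKM in WT discs (0.45 ± 0.14, adjusted p = 0.053), and its part in the AlaRS-m values was not tested. LeuRS-m had 11.9 and 11.3 FPKM in mahj discs, against 8.19 to 11.1 FPKM in WT, a change of 0.33 ± 0.10 (adjusted p = 0.058). Neither AlaRS-m nor LeuRS-m had mahj libraries that overlapped with WT. The first mahj library had fat body genes at 1446 FPKM and the second at 61.4 FPKM, and SerRS-m stood at 13.1 and 12.5 FPKM in them. The part of fat body or other tissues in the SerRS-m values was not tested.

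Without mahj replicate 1, and likewise without replicate 2, the cytoplasmic count was 0 and SerRS-m was the only mitochondrial call. Without WT3 the cytoplasmic count was 1, and without WT1, WT2 or WT3 the mitochondrial count was 2.

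The comparisons with WT share their WT libraries, so that a WT value that is low or high enters all of them. Over the 4 mutants, LeuRS-m was called higher in 4, AlaRS and ArgRS in 3, and GlnRS, LysRS, SerRS, TrpRS, ValRS and both PheRS subunits in 2. Of all genes, 14.4% were called higher in RpS3, 16.5% in RpS3*, 12.1% in RpS15 and 9.33% in mahj. How many of all genes were called in several mutants was not counted, so whether these members stand out cannot be told. There were 6 cytoplasmic genes (GluProRS, GlyRS, HisRS, MetRS, ThrRS and TyrRS) and 6 mitochondrial genes (AsnRS-m, GluRS-m, IleRS-m, MetRS-m, TrpRS-m and TyrRS-m) called in none. GlyRS, the glycine enzyme, had means of 101, 103, 101 and 96.3 FPKM in RpS3, RpS3*, RpS15 and mahj discs, against 94.8 FPKM in WT.

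**Figure D4:**
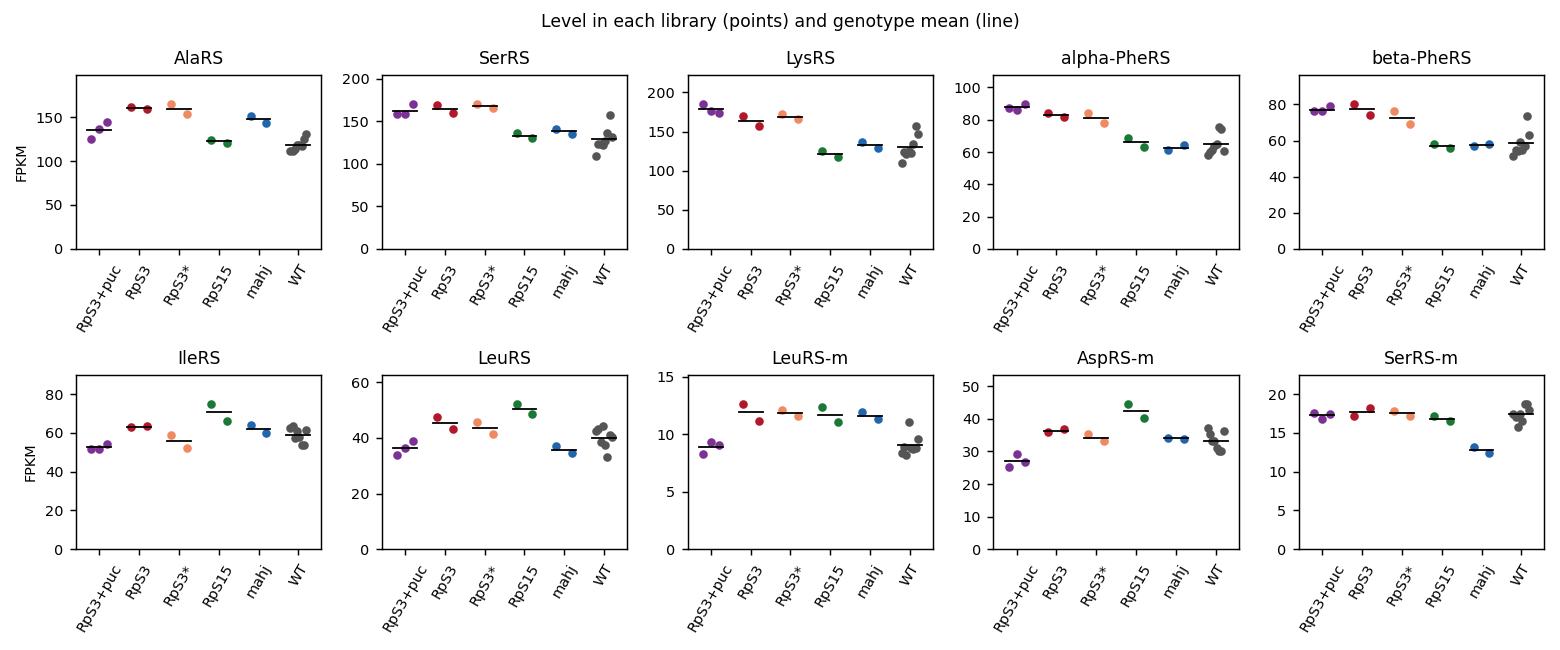
FPKM of 10 synthetase genes in each library (points) with the genotype mean (line), from RpS3+puc at the left to WT at the right of each panel. The 3 RpS3 genotypes stand above RpS15 and mahj in LysRS, alpha-PheRS and beta-PheRS, RpS15 is highest in IleRS, LeuRS and AspRS-m, and mahj is lowest in SerRS-m.

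Differences between mutants were tested directly, as contrasts in a fit with all 19 libraries. Between RpS15 and RpS3* discs 8 synthetase genes were lower in RpS15 and 2 higher. All 8 were cytoplasmic, and all but LysRS lie outside the complex. Over the 8406 genes tested in RpS15 against RpS3*, 29.1% were called lower and 21.7% higher. The median was -0.30 over the 12 cytoplasmic genes outside the complex, all of which lay below 0. It was 0.01 over the 8 of the complex and -0.04 over all genes. Transcript length also differs between the complex and the other genes, and its part in this split was not tested.

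LysRS had 125 and 118 FPKM in RpS15 and 172 and 166 FPKM in RpS3* discs, a difference of -0.47 ± 0.13 (adjusted p = 0.0085). AlaRS had 124 and 121 FPKM in RpS15 and 165 and 153 FPKM in RpS3* discs, a difference of -0.38 ± 0.093 (adjusted p = 0.0052). The beta subunit of PheRS had 58.1 and 55.7 FPKM in RpS15 and 76.2 and 69.0 FPKM in RpS3* discs, a difference of -0.35 ± 0.12 (adjusted p = 0.035). In each of these genes both RpS15 libraries lay below both RpS3* libraries. IleRS differed in the other direction, with 74.9 and 66.2 FPKM in RpS15 and 59.0 and 52.1 FPKM in RpS3* discs (0.34 ± 0.099, adjusted p = 0.012). AspRS-m was the only mitochondrial gene called, with 44.6 and 40.3 FPKM in RpS15 and 35.2 and 33.2 FPKM in RpS3* discs (0.30 ± 0.11, adjusted p = 0.031). SerRS, ThrRS, TyrRS, CysRS and alpha-PheRS were also lower in RpS15, by -0.26 to -0.33 on the log2 scale. The genes called lower had a median longest transcript of 2092 bases, and leaving out a library gave 5 (RpS15 replicate 2) or 6 calls (RpS15 replicate 1 or either RpS3* library). With the length trend removed 9 were called. Of the 6 fat body genes 4 were called higher in RpS15, as were 2 of the 5 haemocyte genes, 3 of the 7 wing disc markers and 1 of the 4 disc myoblast genes. Of the 4 tracheal genes 3 were called lower and 1 higher, and of the 4 larval muscle genes 1 lower.

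Between mahj and RpS3* discs 5 cytoplasmic and 2 mitochondrial genes were lower in mahj and 1 was higher. Over the 8406 genes tested in mahj against RpS3*, 15.7% were called lower and 7.02% higher. The PheRS subunits were both among the genes lower in mahj. Alpha-PheRS had 61.2 and 64.2 FPKM in mahj and 84.2 and 78.0 FPKM in RpS3* discs (-0.37 ± 0.11, adjusted p = 0.042), and beta-PheRS had 57.1 and 58.3 FPKM in mahj and 76.2 and 69.0 FPKM in RpS3* discs (-0.32 ± 0.12, adjusted p = 0.089). LysRS had 137 and 128 FPKM in mahj and 172 and 166 FPKM in RpS3* discs (-0.35 ± 0.13, adjusted p = 0.076), and AsnRS had 108 FPKM in both mahj libraries and 134 and 125 FPKM in RpS3* discs (-0.26 ± 0.10, adjusted p = 0.099). None of the 4 had overlapping libraries, which was part of the rule by which they were picked.

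SerRS-m had 13.1 and 12.5 FPKM in mahj and 17.9 and 17.2 FPKM in RpS3* discs, a difference of -0.43 ± 0.085 (adjusted p = 0.0038). ArgRS-m had 8.69 and 9.21 FPKM in mahj and 12.5 and 11.6 FPKM in RpS3* discs, a difference of -0.40 ± 0.095 (adjusted p = 0.012). ArgRS was the remaining gene called lower (-0.25 ± 0.095), and AspRS was higher in mahj (0.23 ± 0.085). Leaving out any of the 4 libraries left 1 or 2 calls (1 without RpS3* replicate 1 or mahj replicate 1, 2 without RpS3* replicate 2 or mahj replicate 2), and median-of-ratios scaling left 4. Of the 6 fat body genes 4 were called higher in mahj, and so were all 5 haemocyte genes. The haemocyte sums were 7.04 and 14.3 FPKM in mahj and 1.29 and 1.58 FPKM in RpS3* discs. Also called higher were 1 of the 4 larval muscle genes and 1 of the 4 disc myoblast genes.

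RpS3+puc and RpS3 discs were compared to see how RpS3 discs that overexpress the JNK inhibitor puc differ from RpS3 discs. RpS3+puc discs also carry esg-Gal4 and UAS-GFP, which are not listed for RpS3 discs. No library had the driver without UAS-Puc, so effects of puc and of the driver, GFP or background cannot be told apart. In RpS3+puc discs 3 cytoplasmic genes were called higher and 5 lower than in RpS3, and 1 mitochondrial gene higher and 4 lower. Over the 7883 genes tested in RpS3+puc against RpS3, 21.5% were called higher and 25.1% lower, so the members moved no more often than genes in general. The median log2 fold change was -0.02 over the cytoplasmic and -0.04 over the mitochondrial genes, against -0.02 over all genes.

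HisRS had 47.8, 48.9 and 51.5 FPKM in RpS3+puc discs, against 66.2 and 61.1 FPKM in RpS3 discs, and changed by -0.36 ± 0.074 (adjusted p = 0.0080). LeuRS had 33.9, 36.2 and 39.0 FPKM in RpS3+puc discs, against 47.6 and 43.3 FPKM in RpS3 discs (-0.31 ± 0.085, adjusted p = 0.022). IleRS had 51.7, 51.8 and 54.4 FPKM in RpS3+puc discs, against 62.8 and 63.5 FPKM in RpS3 discs (-0.26 ± 0.068, adjusted p = 0.020). All RpS3+puc libraries of these genes lay below the RpS3 libraries. AspRS was higher, with 159, 153 and 152 FPKM in RpS3+puc discs, against 124 FPKM in both RpS3 libraries (0.31 ± 0.066, adjusted p = 0.0088). Nmda1, which overlaps AspRS, averaged 43.6 FPKM in RpS3+puc and 38.2 FPKM in RpS3 discs. It was also called higher (0.18 ± 0.072, limma, adjusted p = 0.075), and its part in the AspRS values was not tested. AlaRS (-0.25) and GluProRS (-0.20) were the other cytoplasmic genes called lower, and TyrRS (0.18) and AsnRS (0.18) the others called higher.

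Of the mitochondrial genes, AspRS-m had 25.3, 29.2 and 26.8 FPKM in RpS3+puc discs, against 36.0 and 36.8 FPKM in RpS3 discs (-0.41 ± 0.083, adjusted p = 0.0075). ValRS-m had 3.86, 4.70 and 4.40 FPKM in RpS3+puc discs, against 5.43 and 6.47 FPKM in RpS3 discs (-0.38 ± 0.13, adjusted p = 0.046). LeuRS-m had 8.27, 9.35 and 9.08 FPKM in RpS3+puc discs, against 12.7 and 11.2 FPKM in RpS3 discs (-0.38 ± 0.10, adjusted p = 0.021). These groups did not overlap. IleRS-m was higher, with 11.4, 12.2 and 12.3 FPKM in RpS3+puc discs, against 9.47 and 9.16 FPKM in RpS3 discs (0.33 ± 0.090, adjusted p = 0.022), and its overlapping neighbour IntS9 changed by 0.07 ± 0.075. TrpRS-m was called lower at -0.23.

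Here too transcript length moved with the changes: Spearman's rho between length and log2 fold change was -0.55 across the 34 members, and the genes called lower had a median longest transcript of 3254 bases, against 2310.5 bases for those called higher. With the length trend removed, HisRS, AspRS-m, LeuRS-m and ValRS-m were still called lower, AlaRS, IleRS, LeuRS and TrpRS-m were not, and GluProRS lay at 0.087. The cytoplasmic calls then were 5 higher and 1 lower, the reverse of the balance above, and the mitochondrial calls 2 higher and 3 lower. All 6 fat body genes and the 3 larval muscle genes tested were also called lower in RpS3+puc. So were 3 of the 7 wing disc markers and 1 of the 2 haemocyte genes tested. Of the 4 disc myoblast genes 1 was called higher. Without RpS3 replicate 1 the counts were 2 cytoplasmic and 2 mitochondrial, and without RpS3 replicate 2 they were 3 and 2.

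Compared with WT, RpS3+puc discs had 20 synthetase genes called higher (15 cytoplasmic and 5 mitochondrial) and 2 lower, where 37.4% of all 8094 genes tested in RpS3+puc against WT were called higher and 24.9% lower. Of the 12 cytoplasmic genes outside the complex 11 were called higher, with a median of 0.31, and of the 8 in the complex 4 were higher and 1 lower. Across the 34 members, Spearman's rho between transcript length and log2 fold change was -0.62 here. The genes called higher had a median longest transcript of 2234.5 bases, against 4026 bases for those called lower. The part of length in these calls was not tested. LysRS had 186, 176 and 174 FPKM in RpS3+puc discs, against 110, 124 and 158 FPKM in WT (lowest, median, highest; 0.46 ± 0.10, adjusted p = 0.0022). Alpha-PheRS had 87.4, 86.0 and 90.0 FPKM in RpS3+puc discs, against 57.9, 62.5 and 75.3 FPKM in WT (0.44 ± 0.089, adjusted p = 0.0015). GlnRS had 69.7, 66.1 and 69.1 FPKM in RpS3+puc discs, against 44.8, 50.1 and 57.5 FPKM in WT (0.43 ± 0.082, adjusted p = 0.00099). CG11858, the neighbour that overlaps GlnRS, averaged 168 FPKM in RpS3+puc and 101 FPKM in WT discs (0.74 ± 0.14, adjusted p = 0.000845), and its part in the GlnRS values was not tested. The groups of these 3 synthetase genes did not overlap, and neither did those of AsnRS, which had 137, 131 and 139 FPKM in RpS3+puc discs, against 94.4, 100.4 and 122 FPKM in WT (0.41 ± 0.082, adjusted p = 0.0014).

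The mitochondrial genes that separated RpS3+puc from WT were AlaRS-m, IleRS-m and AspRS-m. AlaRS-m had 11.0, 11.3 and 10.5 FPKM in RpS3+puc discs, against 7.47, 8.97 and 9.26 FPKM in WT (0.33 ± 0.083, adjusted p = 0.0055). AspRS-m was lower, at 25.3 to 29.2 FPKM in RpS3+puc discs, against 30.0 to 37.2 FPKM in WT (-0.29 ± 0.083, adjusted p = 0.011). IleRS-m was higher, at 11.4 to 12.3 FPKM against 8.34 to 11.1 FPKM (0.27 ± 0.084, adjusted p = 0.017). IntS9, which overlaps IleRS-m, averaged 26.6 FPKM in RpS3+puc and 21.6 FPKM in WT discs. It was also called higher (0.29 ± 0.082, limma, adjusted p = 0.0093), and its part in the IleRS-m values was not tested. LeuRS-m, higher in all 4 mutants, was 8.27 to 9.35 FPKM in RpS3+puc discs and inside the WT range of 8.19 to 11.1 FPKM. Without RpS3+puc replicate 3 there were 14 calls, and median-of-ratios scaling gave 13 higher and 4 lower. All 6 fat body genes, both haemocyte genes tested, 4 of the 7 wing disc markers and 2 of the 4 disc myoblast genes were called lower in RpS3+puc than in WT. Of the 4 larval muscle genes 1 was called higher, and of the 4 tracheal genes 2.

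Cytoplasmic and mitochondrial genes were set side by side within each library. The summed cytoplasmic level was 1734 to 1801 FPKM in RpS3+puc, 1719 and 1795 FPKM in RpS3, 1734 and 1829 FPKM in RpS3*, 1529 and 1598 FPKM in RpS15 and 1585 and 1647 FPKM in mahj discs, against 1408 to 1663 FPKM in WT. In these sums both libraries of RpS3 and of RpS3* and all 3 of RpS3+puc lay above the highest WT library, but the order depended on the scale. As a share of all FPKM of the library, the cytoplasmic genes made up 0.237% to 0.258% in RpS3+puc discs, 0.265% and 0.276% for RpS3, 0.262% and 0.281% for RpS3*, 0.267% and 0.283% for RpS15, and 0.254% and 0.261% for mahj, against 0.217% to 0.245% in WT. By this share RpS15 and mahj also lay above WT, and 1 RpS3+puc library lay within the WT range. The summed mitochondrial level was 164 to 170 FPKM in RpS3+puc, 179 FPKM in both RpS3 libraries, 173 and 177 FPKM in RpS3*, 169 and 182 FPKM in RpS15 and 160 and 161 FPKM in mahj discs, against 148 to 170 FPKM in WT. The RpS3 and RpS3* libraries lay above the WT range of these sums, while those of the other genotypes overlapped with it. As a share of all FPKM the mitochondrial genes were highest in RpS15 discs, at 0.0295% and 0.0322%, against 0.0230% to 0.0268% in WT, and 1 RpS3* library, at 0.0262%, lay within the WT range. The median cytoplasmic level exceeded the median mitochondrial level by 2.58 ± 0.027 log2 units in RpS3+puc (SD, n = 3), 2.57 ± 0.017 in RpS3, 2.55 ± 0.077 in RpS3*, 2.51 ± 0.11 in RpS15 and 2.47 ± 0.027 in mahj (n = 2 each), against 2.55 ± 0.077 in WT (n = 8). The mutant libraries lay within the WT range of 2.45 to 2.67, except 1 RpS15 library at 2.43 and 1 mahj library level with the lowest WT value. Over means in place of medians the difference was 2.70 in mahj, against 2.62 in WT, so that the direction for mahj depended on this choice.

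**Figure D5:**
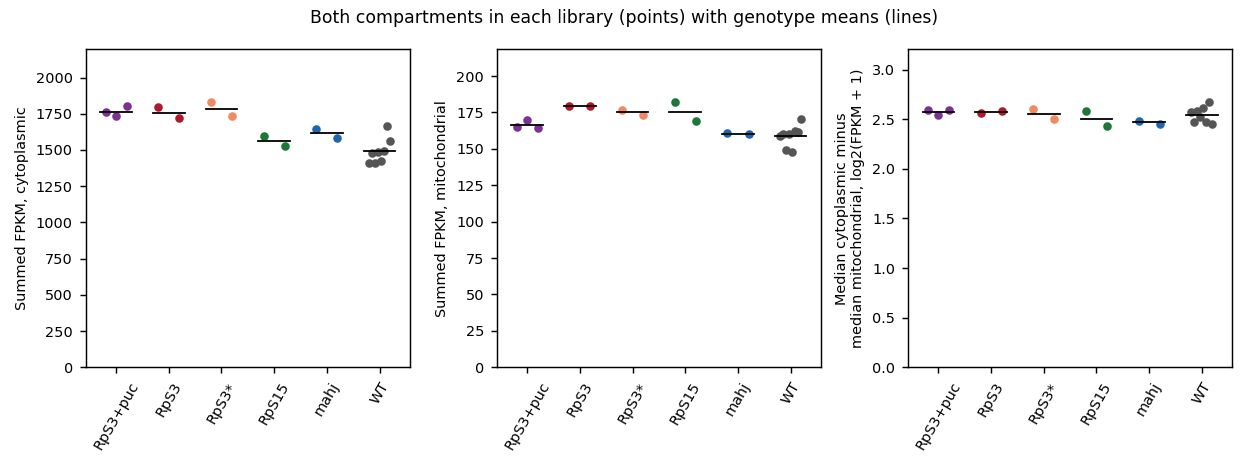
Summed FPKM of the 20 cytoplasmic (left) and 14 mitochondrial (middle) genes and the difference of their medians on the log2(FPKM + 1) scale (right), with 1 point per library and lines for genotype means. The RpS3 genotypes stand above WT in the cytoplasmic sum (1719 FPKM or more, against at most 1663 FPKM in WT). As a share of library FPKM this sum is above WT in RpS15 and mahj too, and within the WT range in RpS3+puc replicate 1 (0.237%). The differences of medians average 2.47 to 2.58.

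For 14 pairs of cytoplasmic and mitochondrial enzymes for the same amino acid (GluProRS paired with GluRS-m and with ProRS-m), the ratio of the levels gives the balance for each amino acid. SerRS stood at 10.8 and 10.9 times the level of SerRS-m in mahj discs, 9.07 to 9.80 times in RpS3+puc, 8.82 and 9.81 times in RpS3 and 9.57 and 9.62 times in RpS3* discs, against 6.25 to 8.43 times in WT. RpS15 discs, at 7.91 and 7.94 times, lay within the WT range. For leucine, LeuRS stood at 3.06 and 3.11 times LeuRS-m in mahj and 3.56 and 3.78 times in RpS3* discs, against 3.81 to 5.10 times in WT, while the other genotypes overlapped with WT. For aspartate, AspRS stood at 5.23 to 6.29 times AspRS-m in RpS3+puc, 4.75 and 5.01 times in mahj, 3.38 and 3.45 times in RpS3, 3.19 and 3.29 times in RpS15 and 4.01 and 4.29 times in RpS3* discs, against 3.61 to 4.56 times in WT. RpS3+puc and mahj lay above the WT range, RpS3 and RpS15 below it. These pairs were picked after their values were seen, and no test was made on the ratios. For the 2 subunits of cytoplasmic PheRS, the ratio of alpha to beta was 1.13 to 1.15 in RpS3+puc discs, 1.05 and 1.10 in RpS3 discs, 1.10 and 1.13 in RpS3* discs, 1.13 and 1.18 in RpS15 discs, and 1.07 and 1.10 in mahj discs, against 0.962 to 1.32 in WT discs.

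The 7 partner genes were described beside the enzymes: AIMP1, AIMP2 and AIMP3, the scaffold of the multisynthetase complex, Slimp, a relative of the mitochondrial serine enzyme, and GatA, GatB and GatC, whose bacterial counterparts convert glutamate on a tRNA to glutamine. AIMP3 was called higher in RpS3 discs (56.9 FPKM, against 40.0 FPKM in WT, 0.51 ± 0.14, adjusted p = 0.037) and in RpS3* (55.9 FPKM, 0.49 ± 0.14, adjusted p = 0.033). Slimp was called in RpS3 (0.34 ± 0.086, adjusted p = 0.030) and had 0.22 ± 0.088 in RpS3* (adjusted p = 0.11). The 7 genes lay between -0.35 and -0.01 in RpS15 and between -0.23 and 0.31 in mahj, without a call. Between RpS15 and RpS3*, AIMP1, AIMP2, AIMP3, Slimp and GatA were lower in RpS15, with AIMP3 at 30.9 FPKM in RpS15 and 55.9 FPKM in RpS3* discs (-0.83 ± 0.15, adjusted p = 0.00049). In RpS3+puc all 7 were higher than in WT, and AIMP2, AIMP3 and GatB were higher than in RpS3 by 0.25, 0.25 and 0.27. Of all genes, 37.4% were called higher in RpS3+puc against WT and 21.5% against RpS3. Between RpS15 and RpS3*, 29.1% of all genes were called lower in RpS15.

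The 8 mitochondrial translation factors tested lay between 0.04 and 0.33 in RpS3 discs against WT, between -0.25 and 0.14 in RpS15 discs, and between -0.25 and 0.34 in mahj discs, without a call. In RpS3* discs mEFTu1, an elongation factor that delivers charged tRNA to the mitochondrial ribosome, and mIF3, an initiation factor, were higher (0.54 ± 0.16 and 0.38 ± 0.095). In RpS3+puc discs mEFTu1 reached 133 FPKM, against 95.8 FPKM in RpS3 (0.47 ± 0.081, adjusted p = 0.0048), while mEFG1 and mIF2 were lower by -0.31 and -0.32. Of all genes, 16.5% were called higher in RpS3* against WT, and 21.5% higher and 25.1% lower in RpS3+puc against RpS3.

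Synthetase genes are known targets of the transcription factor ATF4 in mammals, whose fly counterpart is crc, and a list of 10 stress response genes was set beside them. Of the 10 genes 6 were called higher and 1 lower in RpS3 discs, and likewise in RpS3* discs. In mahj discs 6 were called higher, and RpS15 discs had 1 higher and 4 lower. Of all genes, 14.4% were called higher and 4.17% lower in RpS3, 16.5% and 6.33% in RpS3*, 9.33% and 6.70% in mahj, and 12.1% and 8.99% in RpS15. The crc level was 694, 683, 416 and 755 FPKM in RpS3, RpS3*, RpS15 and mahj discs, against 713 FPKM in WT, and of these 4 was called in RpS15 (-0.77 ± 0.12, adjusted p = 0.0014). Xrp1, another transcription factor of the bZIP class, averaged 469 FPKM in RpS3, 525 FPKM in RpS3*, 59.2 FPKM in RpS15 and 434 FPKM in mahj discs, against 175 FPKM in WT. The other genes of the list are given by count only. A link between this list and the synthetase genes was not tested.

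The 2 WT strains were compared to show how far synthetase levels differ between them without a mutation. Neither is listed with the FRT42D chromosome of the RpS15 and mahj discs, so the comparison does not cover those backgrounds. Between FRT82, ubi-GFP and yw WT discs 0 of the 34 genes were called (limma), with 1 higher and 2 lower at an unadjusted p under 0.05, and 0.589% of the 7975 genes tested in the WT strains were called higher and 0.226% lower. The lowest p-values belonged to LeuRS and HisRS. LeuRS had 37.4 and 33.1 FPKM in FRT82, ubi-GFP discs, against 38.6 to 44.1 FPKM in yw discs, and a log2 fold change of -0.24 ± 0.092 (adjusted p = 0.47). HisRS had 52.6 and 61.0 FPKM in FRT82, ubi-GFP discs, against 31.8 to 50.1 FPKM in yw discs, and 0.40 ± 0.16 (adjusted p = 0.47). The strains did not overlap in either gene. Across the 34 members, Spearman's rho between transcript length and this log2 fold change was -0.50, in a comparison without a mutation.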

How the data were processed

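RNA was isolated from 50 wing discs per sample (RNeasy kit) and sequenced as Illumina TruSeq libraries from 1 µg of total RNA. The 25 samples of the labels are 19 libraries, since 6 (WT1, WT2, RpS15 and mahj) had 2 sequencing runs, which the authors pooled, although the header of the WT1 column names run 1 alone. The deposited values are FPKM, in which the authors had scaled reads by gene length and depth. The submitters' processing notes name BWA 0.6.2 and dm3. The tools for counting and normalization are not given in the sources used here. The implied depth is that at which low FPKM values are whole multiples of 1 read. Gene names, gene overlaps and the lengths of transcripts were taken from the later BDGP6.54 annotation, where 13662 of 13955 identifiers had a symbol. No coordinates or sequences are given. LeuRS was matched through its older identifier.

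The tests had allowed for counts, and FPKM needed another: limma (version 3.58.1, R 4.3.3, statmod 1.5.0) with a robust variance trend, applied to log2(FPKM + 1). A gene entered a comparison if 2 or more of its libraries reached 1 FPKM. Genes were called at p under 0.1 after Benjamini-Hochberg adjustment over all genes tested. Fold changes on this scale understate those of low genes. Nothing says that the samples came from separate crosses, so p-values measure the spread between samples. Comparisons with WT and of RpS3+puc with RpS3 used only the compared libraries, and those between mutants all 19. The script was tested on simulated data. Values in every library are given for members past the threshold whose groups do not overlap, up to 4 per comparison and compartment by size of change. The absence of overlap in members picked this way follows from the rule. The share of all genes without overlap is not given. Where fewer than 2 passed, the 2 with the lowest p are given. Genes outside this rule were named after their values were seen. The members and lists were chosen with earlier results of these data known. A planned motif search in promoters was not run.

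The alternatives were an adjusted p under 0.05, a pseudocount of 0.1, no filter, a joint fit of all libraries, median-of-ratios scaling, a replicate block, other choices of WT libraries and leaving out each library, and, added after seeing the data, removing the trend along transcript length (lowess of each library's deviations, span 0.5) and leaving out WT6 and WT7, the WT libraries with the highest RpS15 levels.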

Additional observations from a re-analysis of the deposited data

Results flagged for a closer look

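In 2 of the 34 members 1 of the 8 WT libraries lay far from the rest, about as many as chance gives at 1 in 20. AsnRS was 122 FPKM in WT7, against 94.4 to 105 FPKM in the other WT libraries, and ArgRS-m was 9.28 FPKM in WT5, against 10.6 to 11.5 FPKM in the others.

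The contrast of RpS15 with RpS3* tests whether their departures from the shared WT libraries differ. It was called for 10 members: LysRS (-0.47 on the log2 scale), AlaRS (-0.38), beta-PheRS (-0.35), SerRS (-0.33), ThrRS (-0.31), TyrRS (-0.30), alpha-PheRS (-0.30), CysRS (-0.26), IleRS (0.34) and AspRS-m (0.30). Over all 8406 genes tested, 50.8% were called in this contrast. The contrast of mahj with RpS3* was called for 8: SerRS-m (-0.43), ArgRS-m (-0.40), alpha-PheRS (-0.37), LysRS (-0.35), beta-PheRS (-0.32), AsnRS (-0.26), ArgRS (-0.25) and AspRS (0.23). Of the 8406 genes tested, 22.7% were called in the contrast of mahj with RpS3*.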

How the results depend on the processing

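Counts give cytoplasmic before mitochondrial calls unless stated. At an adjusted p under 0.05, RpS3 kept 2 cytoplasmic calls, RpS3* 4 and 1, RpS15 1 and 1, mahj 1 and 1, RpS3+puc against RpS3 5 cytoplasmic, and mahj against RpS3* 3 in all. Median-of-ratios scaling gave 3 and 1 in RpS3, 5 and 1 in RpS3* and 4 for mahj against RpS3*. With only WT libraries of as many sequencing runs, the counts were 3 and 0 in RpS3, 6 cytoplasmic in RpS3*, 6 and 1 in RpS15 and 8 cytoplasmic in mahj. Without a filter there were 1 mitochondrial call in RpS3*, 2 in mahj and 5 calls for mahj against RpS3*, and with yw WT alone 1 mitochondrial call in RpS3*. A joint fit of all 19 libraries gave 4 mitochondrial calls in RpS3, 5 in RpS3*, 6 cytoplasmic calls in RpS15 and 4 in RpS3+puc against RpS3. Without WT6 and WT7, chosen after seeing the data, RpS3 had 14 and 5, RpS3* 5 mitochondrial and RpS15 6 cytoplasmic calls. With the length trend removed, also chosen after seeing the data, RpS15 had 1 and 0 and mahj against RpS3* 4 calls, and GluProRS in RpS3+puc against RpS3 turned to 0.087 (limma, adjusted p = 0.28). The cause was not tested.

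With a replicate block and all 19 libraries in the fit, RpS3 had 15 and 6 calls, RpS3* 5 mitochondrial, RpS15 8 and mahj 9 cytoplasmic, RpS15 against RpS3* 16 and mahj against RpS3* 13. Deviations of same-numbered samples correlated between -0.23 and 0.23, so that the samples share only a number, and WT4 to WT8 have numbers of their own. The WT strains share no number and no block could be made.

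Leaving out each library in turn gave 0 to 12 cytoplasmic and 0 to 4 mitochondrial calls in RpS3, 0 to 13 and 0 to 5 in RpS3*, 0 to 4 and 0 to 2 in RpS15, 0 to 2 and 1 to 3 in mahj, and 2 to 8 and 2 to 5 in RpS3+puc against RpS3. The totals were 14 to 22 for RpS3+puc against WT, 5 to 6 for RpS15 and 1 to 2 for mahj against RpS3*, and 0 between the WT strains. A lone library left in a group is taken to vary like the others. Taken over means rather than medians of the members, the cytoplasmic levels exceeded the mitochondrial ones by 2.73 in RpS3+puc, 2.68 in RpS3, 2.71 in RpS3* and 2.70 in mahj, against 2.62 in WT (log2). Of 901 alternative values for 49 changes of single genes, 633 kept their call, 267 lost it in the same direction and 1 reversed.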
